A study of Mus musculus with 62 samples.

Results

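Muscle of mice that carried a melanoma without wasting was compared with muscle of mock-injected mice, with the libraries of all weeks pooled. The study holds 62 RNA libraries of gastrocnemius, a fast muscle of the calf, from female mice aged 2 months at injection. By group, 22 libraries are of mice given cachexia-causing melanoma cells (CAC), 20 of mice given melanoma cells without that effect (NCAC) and 20 of mock-injected mice (Con), with muscle taken after 2, 4, 6 or 8 weeks. The 40 NCAC and Con libraries, chosen by their labels, entered the comparison as 5 libraries per group and week, and the CAC libraries were left out of the fit. The question was whether a tumour that does not waste its host shifts the muscle at all.

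The design text describes the mice as NCI Ath/nude and the sample labels name another strain, C57BL6/J, so the strain is not known here. All groups share sex, age at injection and tissue, and the labels name no transgene or deletion. The labels do not name the melanoma lines, and tumour sizes and muscle weights were not analysed here. The labels call the libraries biological replicates and do not say how many animals each holds. The p-values therefore set a difference against the spread between these libraries.

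Cachexia is the loss of muscle and fat that accompanies many tumours. In muscle it is known for a rise of ubiquitin ligases that mark myofibre proteins for the proteasome, driven among others by FoxO factors and glucocorticoids, and for signalling of interleukin-6 family cytokines through STAT3, which induces acute phase proteins. A tumour that does not cause wasting serves as the control that separates the presence of a tumour from the wasting.

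Values are in TPM, in which the transcripts of each library are scaled to the same total. Depth, estimated from the smallest step between values and the exon lengths, was 43.4 to 47.5 M reads per Con library and 44.0 to 47.7 M reads per NCAC library. Genes that define fast fibres were abundant in each library (summed TPM of *Myh4*, *Myh1* and *Actn3* of 16192 to 24903 in Con and 14653 to 30118 in NCAC). Melanocyte markers were near 0 in both groups, with a summed level of at most 1.48 TPM in Con and 0.448 TPM in NCAC, and *Tyr* was listed at 0 in 36 of 40 libraries. Markers of T, B and NK cells were also near 0, and *Cd3e* and *Cd8a* were each listed at 0 in 32 libraries. In these bulk samples, fewer cells of a type and less RNA per cell cannot be told apart. Several libraries stood apart. NCAC replicate 3 of 8 weeks and replicates 3 and 4 of 6 weeks lay farthest from their group means, with a median absolute deviation of 0.169, 0.149 and 0.157 on the log2 scale against at most 0.120 in the other libraries. NCAC replicates 2, 3 and 4 of 4 weeks held transcripts of liver-secreted proteins (10 genes chosen after their values were seen, summing to 98.8, 457 and 74.0 TPM against at most 49.7 TPM in the other 37), and Con replicate 1 of 6 weeks held keratin transcripts (a summed level of *Krt5*, *Krt14* and *Krt10* of 621 TPM).

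No gene passed the test between NCAC and Con over the 4 weeks. Of 11756 genes tested with limma on log2(TPM + 1), with week as a covariate, 0 (0%) passed an adjusted p of 0.05, and the lowest adjusted p was 0.300. At an unadjusted p under 0.05, 1235 genes (10.5%) were counted, 61 with a higher level in NCAC (0.519%) and 1174 with a lower level (9.99%). This split differed between scalings. TPM are shares, and the median log2 difference over all genes was -0.04, with 9288 genes below 0 and 2468 above. After median-ratio scaling, which centres the typical gene of each library, the median was 0.00, and the count at an unadjusted p under 0.05 was 640 (5.44%), of which 406 were higher (3.45%) and 234 lower (1.99%) in NCAC. Again 0 genes were called. Centring sets the median near 0 by design, so whether the many small lower levels are a shift of the muscle was not tested. Without mitochondrial genes and with the TPM rescaled, 99 genes were higher (0.843%) and 385 lower (3.28%) at an unadjusted p under 0.05. With all 62 libraries in the fit, and the CAC groups sharing the estimate of the spread, 0 were called and 529 had an unadjusted p under 0.05.

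The intervals show how large a difference the 40 libraries leave room for. The median half-width of the 95% interval was 0.10 on the log2 scale, which is 1.07-fold on TPM + 1. The whole interval lay within 0.32 of 0 on the log2 scale, called a narrow interval here, for 10858 genes (92.4%), within 1.5-fold in either direction for 11587 (98.6%) and within 2-fold for 11716 (99.7%). Precision was lower for weakly expressed genes. Among 541 genes with a mean under 1 TPM in Con the interval was narrow for 83.5%, against 94.2% of the 755 genes over 100 TPM. The estimate itself was more than 0.32 from 0 for 71 genes and beyond 1.5-fold for 17.

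**Figure D1:**
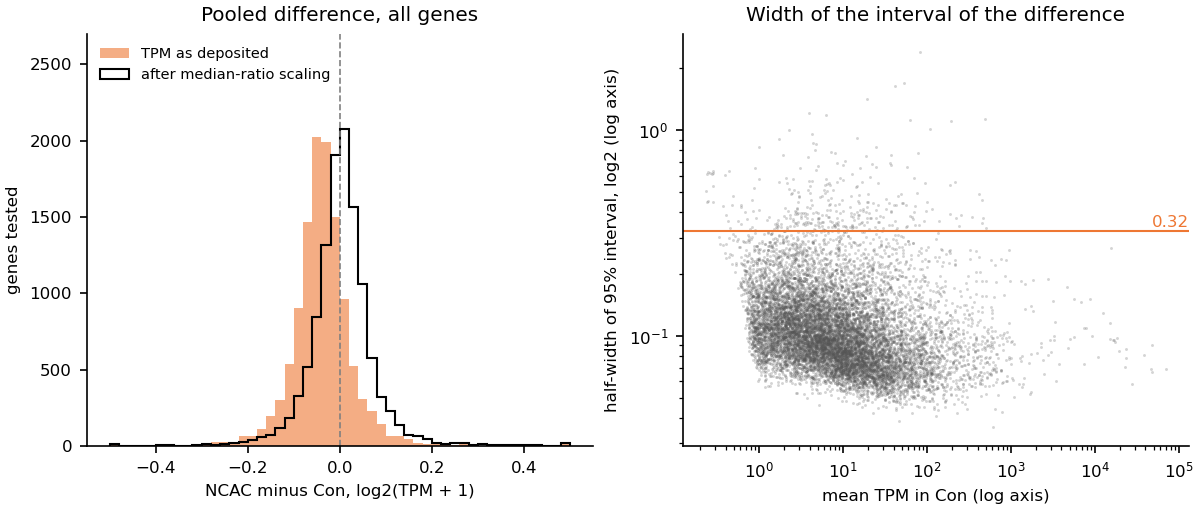
Left, histogram of the NCAC minus Con difference in log2(TPM + 1) over 11756 genes, as deposited (filled) and after median-ratio scaling (line), with values beyond 0.5 in the outermost bins. Right, half-width of the 95% interval against mean TPM in Con, 1 point per gene, both axes logarithmic. The filled histogram is centred at -0.04 and most points lie below the line at 0.32.

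Genes that are known to respond in wasting muscle were not called between NCAC and Con, with intervals that were wider than those of most genes. A list of 24 such genes, drawn up with earlier results of these data known, held 0 called genes in NCAC against Con. In CAC against NCAC, fitted over all 62 libraries with limma, 22 of the 24 were called, 18 higher and 4 lower, where 79.6% of the 12364 genes tested in that fit were called (73.5% higher and 6.11% lower, or 56% in all after median-ratio scaling, 28.4% higher and 27.6% lower). Both comparisons use the NCAC libraries, so their values are set side by side only. Under median-ratio scaling *Pdk4* (0.49) and *Ppargc1a* (0.08) were no longer called between CAC and NCAC, and *Myh4* was called lower in CAC (-0.26).

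*Trim63*, which encodes the ubiquitin ligase MuRF1, ranged from 109 to 203 TPM in the 20 Con libraries (median 156) and from 112 to 287 TPM in the 20 NCAC libraries (median 151). The ranges overlapped, and 3 NCAC libraries (replicate 1 of 6 weeks at 263 TPM, replicates 1 and 3 of 8 weeks at 235 and 287 TPM) were above every Con library. The log2 difference over weeks was 0.04 (95% interval -0.12 to 0.21, limma adjusted p = 0.826), beside 1.32 (0.82 to 1.82) for CAC minus NCAC. By week the *Trim63* difference of NCAC minus Con was 0.12, -0.15, -0.15 and 0.35 at 2, 4, 6 and 8 weeks, called at none. At 8 weeks 4 NCAC libraries were above every Con library of that week. *Fbxo32*, the ligase atrogin-1, ranged from 37.8 to 114 TPM in Con (median 87.1) and from 43.0 to 180 TPM in NCAC (median 80.6). Its log2 difference was -0.01 (-0.27 to 0.24, limma adjusted p = 0.972), beside 1.19 for CAC minus NCAC. *Foxo1*, a transcription factor of both ligase genes, had a log2 difference of 0.13 (-0.18 to 0.43). Of the wider list of atrophy ubiquitin ligases, 0 of 16 tested were called, and all 16 intervals were narrow. The member of lowest p was *Fbxo40*, a muscle-specific F-box protein, with a log2 difference of -0.11 (-0.17 to -0.04, limma adjusted p = 0.464), or -0.06 after median-ratio scaling.

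Genes of the STAT3 arm were not called. *Stat3* itself ranged from 10.3 to 15.5 TPM in Con and from 10.1 to 15.0 TPM in NCAC, with medians of 11.78 and 12.02 TPM. The log2 difference was -0.00 (-0.09 to 0.08), beside 1.72 (1.60 to 1.85) for CAC minus NCAC. Its feedback inhibitor *Socs3* ranged from 1.55 to 7.66 TPM in Con and from 1.38 to 5.83 TPM in NCAC, and its log2 difference was 0.06 (-0.23 to 0.34), beside 3.55 for CAC minus NCAC. Among the acute phase genes, the haemoglobin scavenger *Hp* differed by -0.02 (-0.48 to 0.44), the protease inhibitor *Serpina3n* by 0.00 (-0.23 to 0.23), the siderophore-binding *Lcn2* by 0.03 (-0.19 to 0.25) and the complement gene *C4b* by 0.02 (-0.33 to 0.38), all as log2 differences of NCAC minus Con. The same 4 genes differed by 2.81 to 3.96 between CAC and NCAC. *Lcn2* was low, at 0.115 to 2.38 TPM in Con and 0.221 to 2.68 TPM in NCAC. At such levels differences in log2(TPM + 1) understate fold changes of TPM. In the list of STAT3 and acute phase genes, 0 of 21 tested were called, 10 were above 0 and 11 below. After median-ratio scaling 15 were above 0 and 6 below. Over all 11756 genes 2468 were above 0 and 9288 below, or 6277 and 5479 when scaled.

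Stress-responsive genes had wider intervals, and single libraries were high in both groups. The zinc-binding metallothionein *Mt2* ranged from 6.82 to 126 TPM in Con (median 13.1) and from 8.02 to 87.7 TPM in NCAC (median 12.7). The highest Con value was replicate 5 of 4 weeks, and the highest NCAC value was replicate 3 of 8 weeks. Its log2 difference was 0.16 (-0.43 to 0.76), so the interval holds a 1.5-fold higher level in NCAC, while CAC minus NCAC was 4.59 (3.76 to 5.42). The glucocorticoid target *Fkbp5* (log2 difference 0.16, -0.45 to 0.77), the cell cycle inhibitor *Cdkn1a* (-0.20, -0.58 to 0.17) and the kinase *Pdk4*, which limits glucose oxidation (0.22, -0.17 to 0.61), also had wide intervals that held 0. Across the 24 genes the whole interval was narrow for 11 and within 1.5-fold for 17, against 92.4% and 98.6% of all genes tested, so the list leaves more room for a difference than the typical gene.

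Of the 4 genes of this list called lower in CAC than in NCAC, *Ostn* had the lowest p between NCAC and Con. *Ostn*, the secreted peptide osteocrin or musclin, ranged from 21.6 to 160 TPM in Con (median 54.4) and from 15.7 to 89.5 TPM in NCAC (median 46.6). At 6 weeks the 5 Con libraries were at 135, 160, 92.0, 27.2 and 106 TPM and the 5 NCAC libraries at 64.7, 49.7, 50.1, 46.3 and 68.2 TPM. All but 1 of these Con libraries were above every NCAC library of that week. The log2 difference of *Ostn* over weeks was -0.41 (-0.82 to -0.01, unadjusted p = 0.0436, limma adjusted p = 0.467), or -0.37 (unadjusted p = 0.0753) after median-ratio scaling, and NCAC was lower in 3 of 4 weeks. *Ighm*, *Actc1* and *Pvalb*, the other genes of the list that were lower in CAC, had log2 differences of 0.18, 0.13 and -0.06 between NCAC and Con, with intervals that held 0. The fast myosin *Myh4* was at a median of 12241 TPM in Con and 12085 TPM in NCAC, with a log2 difference of -0.04 (-0.17 to 0.09).

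**Figure D2:**
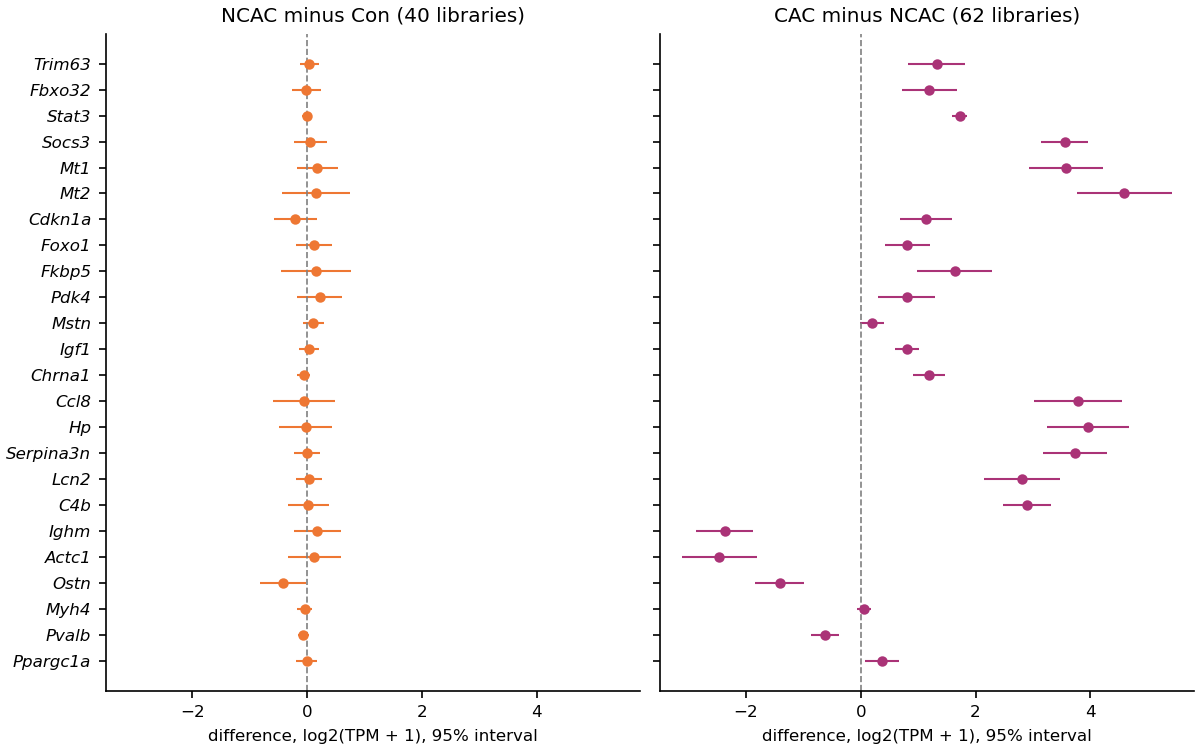
Log2 differences in log2(TPM + 1) with 95% intervals for 24 genes known from wasting muscle, NCAC minus Con at the left and CAC minus NCAC at the right, on the same scale. The points at the left lie between -0.41 and 0.22, and those at the right between -2.46 and 4.59.

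The genes of lowest p are named here as not called. On the lower side they were *Pick1*, a PDZ-domain adaptor that binds protein kinase C, *Neil1*, a DNA glycosylase of base excision repair, *Cdc42ep1*, an effector of the small GTPase Cdc42, the unnamed gene *AW011738* and *Stoml1* of the stomatin family. *Pick1* ranged from 10.7 to 13.9 TPM in Con (median 11.9) and from 9.11 to 12.6 TPM in NCAC (median 10.9). The groups overlapped in part: 8 NCAC libraries were below every Con library, and 5 Con libraries were above every NCAC library. The log2 difference was -0.15 (SE 0.03, unadjusted p = 8e-05, limma adjusted p = 0.300), and it lay between -0.16 and -0.14 in each of the 4 weeks. *Cdc42ep1* ranged from 8.83 to 13.7 TPM in Con and from 7.22 to 12.6 TPM in NCAC, with a log2 difference of -0.22 (SE 0.05). *Neil1*, *AW011738* and *Stoml1* had log2 differences of -0.18, -0.26 and -0.13. NCAC was lower than Con in all 4 weeks for each of the 5 genes, and after median-ratio scaling their log2 differences were -0.09 to -0.22. The 5 genes were picked by p in these same libraries, so their sign at each week and the partial separation of *Pick1* add no support. How many of all genes kept their sign over the weeks, or had as many libraries apart, was not counted. In the GENCODE M21 annotation of build mm10, *Pick1* (chr15:79229173-79249484) lies on the same chromosome as *Cdc42ep1* (chr15:78842624-78850897). *Neil1* (chr9:57142800-57148305) likewise shares a chromosome with *Stoml1* (chr9:58253164-58262520). A link between the genes of a pair was not tested.

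On the higher side, passing over predicted genes and pseudogenes, the genes of lowest p were *Rtkn2* (log2 difference 0.33), the radial spoke genes *Rsph3b* (0.43) and *Rsph3a* (0.63), the splicing factor *Cwc22* (1.11) and the oxysterol-binding protein gene *Osbpl6* (0.14). Each had a limma adjusted p of 0.464. The predicted genes *Gm13691*, *Gm13693*, *Gm13694*, *Gm13696*, *Gm13697* and *Gm13698* had unadjusted p-values of 0.00612 to 0.00757, lower than those of *Cwc22* (0.00803) and *Osbpl6* (0.00843). *Osbpl6* ranged from 5.69 to 8.17 TPM in Con and from 5.58 to 9.31 TPM in NCAC, and 5 NCAC libraries were above every Con library. At 2 weeks the groups of *Osbpl6* did not overlap (5.69 to 6.26 TPM in Con and 6.63 to 9.31 TPM in NCAC), with a log2 difference of 0.35 (limma adjusted p = 0.393), and at the later weeks they overlapped. The gene was picked by p in these same libraries, so this adds no support. The share of all genes without overlap at a week was not counted.

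Some of the largest estimates came from genes listed at separate levels rather than on a continuous scale. The limits between levels were set after the values were seen. The largest estimate, of the pseudogene *Rps26-ps1*, was 1.61 (-0.78 to 4.00, limma adjusted p = 0.578). *Rps26-ps1* was at most 0.859 TPM in 16 Con and 12 NCAC libraries, and at 296 to 624 TPM in 4 Con and 8 NCAC libraries. *Cwc22* (chr2:77881159-77946375) was at 2.30 to 3.75 TPM in 19 Con libraries and at 2.14 to 3.08 TPM in 12 NCAC libraries, and at 40.8 TPM in 1 Con library and 21.4 to 68.6 TPM in 8 NCAC libraries, with none between. The 9 libraries with high *Cwc22* were the ones with the 6 predicted genes *Gm13691*, *Gm13693*, *Gm13694*, *Gm13696*, *Gm13697* and *Gm13698* (chr2:83955693-83993045), which summed to 17.6 to 50.6 TPM there and to at most 0.0585 TPM in the other 31. These predicted genes were named after their values were seen, and near-identical copies can share reads, so the level of any single copy is uncertain. *Myh8*, the perinatal myosin heavy chain, was at 0.352 to 0.780 TPM in 1 Con and 5 NCAC libraries and at 41.2 to 107 TPM in all others, with a log2 difference of -1.21 (-2.33 to -0.08, limma adjusted p = 0.464). Its neighbour *Myh13*, also named after its values were seen (chr11:67321658-67371586, beside *Myh8* at chr11:67277124-67308634) was at most 1.28 TPM in the same 6 libraries and at least 14.8 TPM in the others. *Rsph3a* was at 5.03 to 10.5 TPM in 10 Con libraries and 5.87 TPM in 1 NCAC library and at 16.7 to 38.3 TPM in the other 29. *Rsph3a* and *Rsph3b* are near-identical copies on chromosome 17, and their separate values are uncertain. Of the 17 genes with an estimate beyond 1.5-fold, 12 were higher and 5 lower in NCAC, and 11 were predicted genes or pseudogenes. The origin of these levels was not tested.

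**Figure D3:**
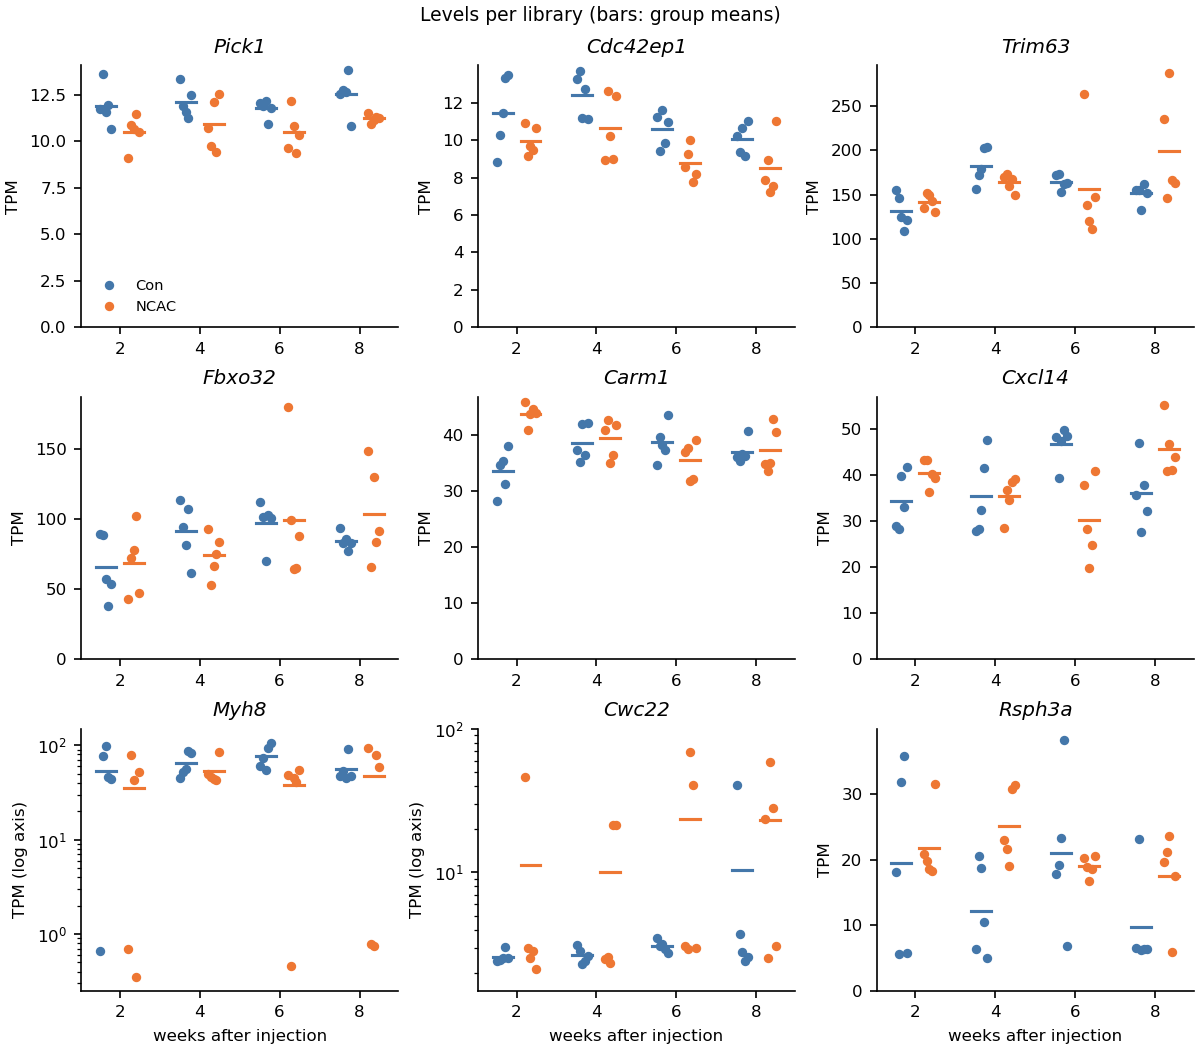
TPM of 9 genes in each of the 40 libraries by week after injection, Con in blue and NCAC in orange, with bars at the group means; the axes of Myh8 and Cwc22 are logarithmic and the others start at 0. Pick1 and Cdc42ep1 are slightly lower in NCAC with overlapping points, Trim63 and Fbxo32 overlap, and Myh8, Cwc22 and Rsph3a fall into separate levels.

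Gene lists for pathways and cell types were read by their counts and medians beside those of all genes (0% called, median log2 difference -0.04, and 9.99% lower and 0.519% higher at an unadjusted p under 0.05). Of all 11756 genes tested, 9288 were below 0 and 2468 above, or 5479 and 6277 after median-ratio scaling. A list with most members below 0 is therefore not set apart by that count alone. None of the 48 lists beside the 24 genes above held a called gene, and that of T, B and NK cells had no member above the filter. In the lists of nuclear oxidative phosphorylation, the TCA cycle and fatty acid oxidation each interval was narrow. Other lists of energy metabolism were narrow for 22 of 23 genes (glycolysis and glycogen), 11 of 13 (mitochondrial genome) and 8 of 17 (PPAR and fasting targets). The lowest estimate of the glycolysis list was -0.65. Of 77 nuclear genes of oxidative phosphorylation, 76 were below 0, with a median of -0.06, 22 were lower at an unadjusted p under 0.05, and all 77 intervals were narrow. After median-ratio scaling the median was -0.01, 51 were below 0 and 0 had an unadjusted p under 0.05. The member of lowest p, the ATP synthase subunit gene *Atp5k*, ranged from 662 to 838 TPM in Con and from 611 to 794 TPM in NCAC, with a log2 difference of -0.10, or -0.05 when scaled. Of 17 genes of the TCA cycle 15 were below 0 (median -0.05), of 25 of fatty acid oxidation 21 (median -0.05), of 36 proteasome genes 32 (median -0.03) and of 78 ribosomal protein genes 73 (median -0.05). After scaling, the medians of the first 3 turned to 0.00, 0.00 and 0.02, and that of the ribosomal protein genes was -0.00.

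No gene of the fast or slow sarcomere lists was called. Among 15 fast sarcomere genes the median was -0.03, or 0.02 when scaled, and each interval was narrow. Among 13 slow sarcomere genes 12 were above 0, with a median of 0.09 (0.14 when scaled). The member of lowest p, *Myl6b*, a myosin light chain of slow fibres, ranged from 12.7 to 37.2 TPM in Con and from 10.9 to 66.4 TPM in NCAC and had a log2 difference of 0.29 (-0.04 to 0.62). Of 15 genes of denervation and the neuromuscular junction 11 were below 0 and 4 above (median -0.05, or 0.00 when scaled), and 0 were called. At an unadjusted p under 0.05, 1 was higher and 2 were lower in NCAC. *Colq*, the anchor of acetylcholinesterase, had a log2 difference of -0.22 (-0.36 to -0.07, limma adjusted p = 0.464), and *Musk*, the receptor kinase that clusters acetylcholine receptors, one of 0.26 (0.03 to 0.49, limma adjusted p = 0.464).

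Both lists that describe the vessel wall had medians below that of all genes, without a call. All 15 endothelial markers were below 0, with a median of -0.12, and 4 were lower at an unadjusted p under 0.05. After median-ratio scaling 14 of the 15 were below 0, with a median of -0.07, and 2 were lower at an unadjusted p under 0.05. *Egfl7*, a protein secreted by endothelium, ranged from 14.8 to 30.5 TPM in Con (median 19.3) and from 13.0 to 26.0 TPM in NCAC (median 17.1). At 2 weeks *Egfl7* was at 19.2, 23.7, 19.3, 27.8 and 21.9 TPM in Con and at 13.0, 18.5, 16.7, 14.8 and 13.1 TPM in NCAC, with no overlap, and at the later weeks the groups overlapped. How many of all genes had no overlap at a week was not counted. *Egfl7* was picked from these same libraries as the member of lowest p of its list. Over weeks its log2 difference was -0.21 (-0.35 to -0.07, limma adjusted p = 0.464), or -0.16 when scaled. All 13 smooth muscle and pericyte markers were below 0 (median -0.10), 5 of them at an unadjusted p under 0.05. When scaled, 10 of 13 were below 0 (median -0.07) and 1 had an unadjusted p under 0.05. *Acta2*, smooth muscle actin, ranged from 24.5 to 119 TPM in Con and from 18.8 to 89.1 TPM in NCAC, with a log2 difference of -0.32 (-0.58 to -0.06), or -0.27 when scaled. The stromal chemokine *Cxcl12* had a log2 difference of -0.21 (-0.35 to -0.07).

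Fat markers had the lowest median of any list plotted. Of 15 adipocyte markers 13 were below 0, with a median of -0.25, or -0.20 when scaled, and 2 were lower at an unadjusted p under 0.05, or 0 when scaled. *Fabp4*, the fatty acid carrier of adipocytes and endothelium, ranged from 305 to 685 TPM in Con and from 289 to 606 TPM in NCAC, with a log2 difference of -0.21 (-0.40 to -0.02), or -0.16 when scaled. The summed level of *Adipoq*, *Plin1* and *Cidec* ranged from 25.8 to 149 TPM in Con (median 58.4) and from 20.03 to 107 TPM in NCAC (median 47.7). The interval lay within 1.5-fold for 7 of the 15 markers.

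Immune lists held no call. Of 13 macrophage markers 9 were above 0, with a median of 0.02, and of 36 interferon-response genes 13 were above 0 and 23 below, with a median of -0.04. *Igkc*, the kappa light chain of antibodies, was at 0.292 to 67.3 TPM in Con and 0.187 to 12.2 TPM in NCAC, and the 3 highest values were the Con libraries of replicate 1 of 8, 2 and 4 weeks (67.3, 30.5 and 19.5 TPM). The iron exporter *Slc40a1* had a log2 difference of -0.26 (-0.47 to -0.05). In the circadian list 0 of 18 were called. *Arntl*, the clock activator BMAL1, ranged from 1.53 to 9.77 TPM in Con (median 3.97) and from 1.23 to 5.87 TPM in NCAC (median 2.64), with a log2 difference of -0.46 (-0.79 to -0.13, limma adjusted p = 0.464) and a lower level in NCAC in all 4 weeks. *Arntl* was picked as the member of lowest p of its list, so its sign at each week adds no support. The labels give no hour of collection.

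**Figure D4:**
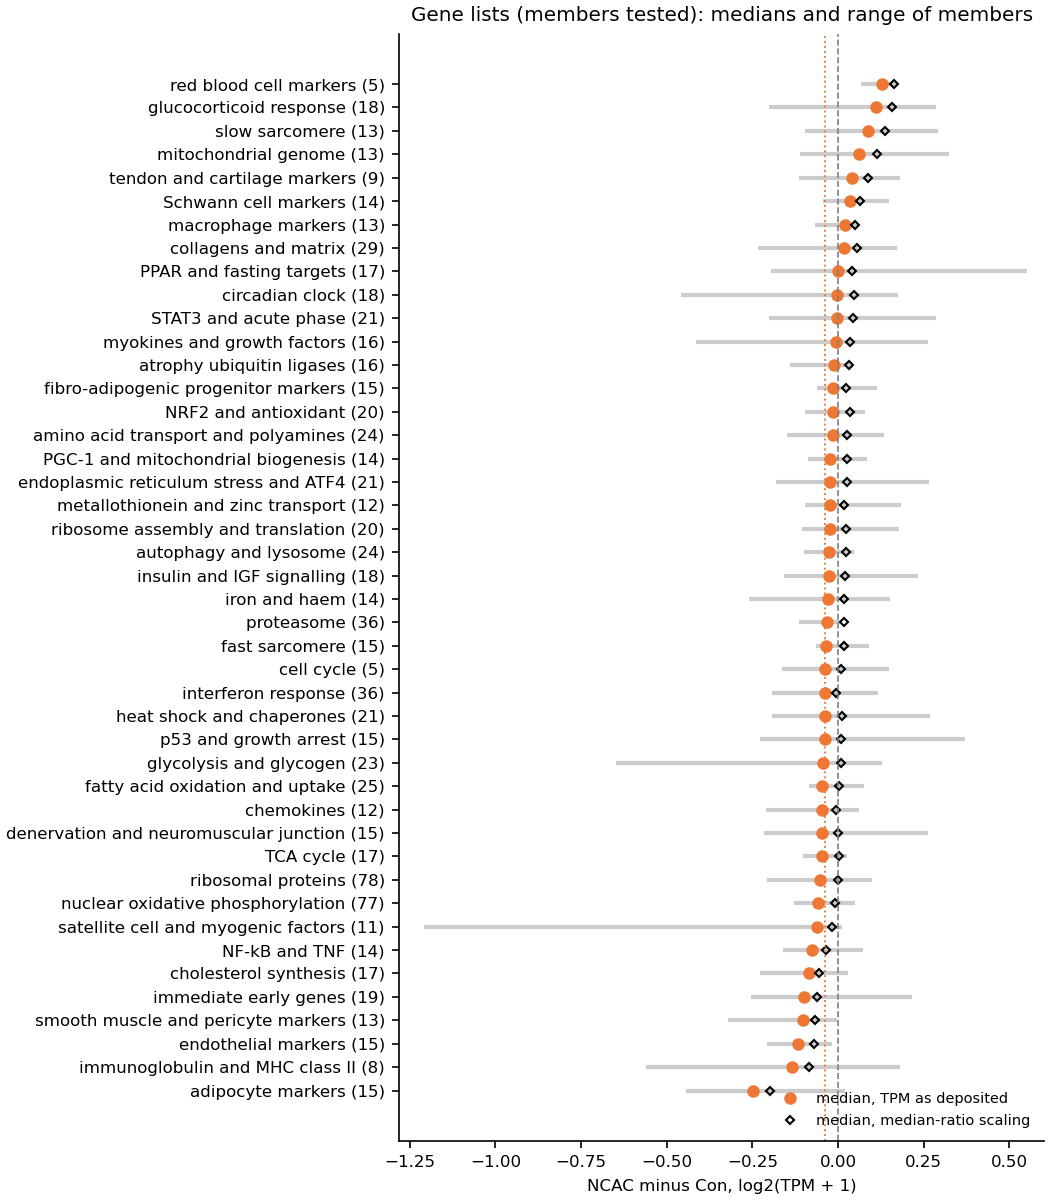
Median NCAC minus Con difference in log2(TPM + 1) of 44 lists with at least 5 genes tested, as deposited (filled circles) and after median-ratio scaling (open diamonds); grey bars span the members' lowest to highest difference and the dotted line marks the median of all genes, -0.04. As deposited 36 medians lie below 0, and after scaling 12 do.

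Transcripts of the mitochondrial genome held 33.4% ± 2.29 of the TPM in Con and 34.7% ± 3.26 in NCAC (SD, n = 20 each). The difference averaged over weeks was 1.21 percentage points (two-sided permutation test within weeks, 100000 resamples, p = 0.171), which was within the spread of libraries. The share was higher in NCAC than in Con at 2 weeks (36.4% ± 1.33 against 34.1% ± 0.820, SD, n = 5 each) and 6 weeks (36.7% ± 3.73 against 33.0% ± 2.47), close at 4 weeks (33.2% ± 2.50 against 33.1% ± 2.85) and lower at 8 weeks (32.2% ± 3.08 against 33.5% ± 3.02). The highest share of all was in NCAC replicate 3 of 6 weeks (42.3%) and the lowest in NCAC replicate 3 of 8 weeks (26.8%). With the mitochondrial genes taken out and the TPM rescaled, the median log2 difference over all genes was -0.02, and 484 of 11743 genes (4.12%; 0.843% higher and 3.28% lower) had an unadjusted p under 0.05 and 0 were called. Among 13 mitochondrial genes 11 were above 0 (median 0.06), and *mt-Atp8*, an ATP synthase subunit, had the lowest p. *mt-Atp8* ranged from 6690 to 23986 TPM in Con and from 10748 to 32639 TPM in NCAC, with a log2 difference of 0.32 (0.05 to 0.59, limma adjusted p = 0.464).

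**Figure D5:**
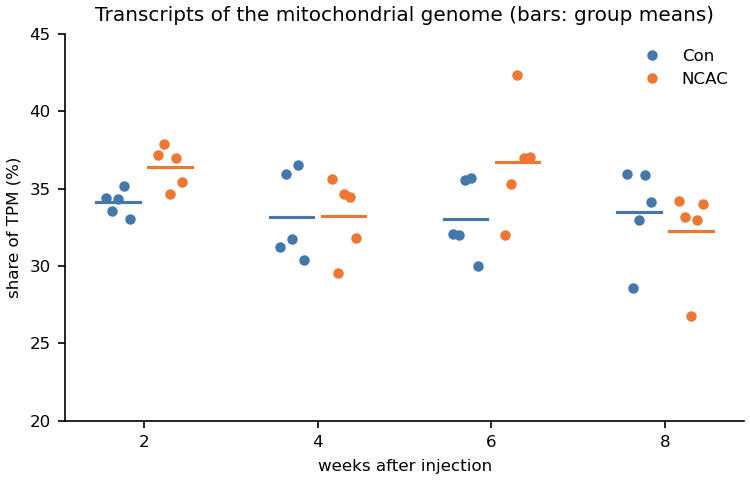
Share of TPM held by mitochondrial transcripts in each library by week after injection, Con in blue and NCAC in orange, with bars at the group means; the axis runs from 20% to 45%. The NCAC means are above Con at 2 and 6 weeks, and the groups overlap at each week.

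Taken week by week, the comparison called no gene either. Limma called 0 of 11756 genes at each of 2, 4, 6 and 8 weeks, and the counts at an unadjusted p under 0.05 were 888 (7.55%), 384 (3.27%), 1973 (16.8%) and 238 (2.02%). By direction, NCAC was higher for 150 genes (1.28%) and lower for 738 (6.28%) at 2 weeks, for 276 (2.35%) and 108 (0.919%) at 4 weeks, for 36 (0.306%) and 1937 (16.5%) at 6 weeks and for 71 (0.604%) and 167 (1.42%) at 8 weeks. Median-ratio scaling moved these splits towards higher levels in NCAC. It gave 782 genes at 2 weeks (6.65%; 3.21% higher and 3.45% lower), 524 at 4 weeks (4.46%; 3.33% and 1.13%), 855 at 6 weeks (7.27%; 4.45% and 2.82%) and 293 at 8 weeks (2.49%; 1.2% and 1.29%). With this scaling 1 gene (0.00851%) was called at 6 weeks, *Cript*, a postsynaptic scaffold-binding protein named for this call, with a log2 difference of 0.27 (limma adjusted p = 0.0469). Single libraries moved these counts. Without NCAC replicate 4 the count at 6 weeks was 1217, without NCAC replicate 1 that at 2 weeks was 592, without Con replicates 1, 2 or 5 that at 4 weeks was 198, 596 or 256, and without Con replicate 4 or NCAC replicate 5 that at 8 weeks was 409 or 451.

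No gene was called for a difference that changed between weeks. An F test of the interaction of group and week in limma called 0 of 11756 genes (lowest adjusted p 0.480), and 624 (5.31%) had an unadjusted p under 0.05. The gene of lowest p was the long noncoding RNA *2010015M23Rik*, followed by *Extl1*, a glycosyltransferase of heparan sulfate synthesis, the chemokine *Cxcl14*, the arginine methyltransferase *Carm1*, *Pcyt1a* of phosphatidylcholine synthesis, the corepressor *Bcor*, the zinc finger gene *Zc3h4* and *Yjefn3*. These genes were picked by p from these same libraries, so a week without overlap follows from the pick and adds no support. How many of all 11756 genes had no overlap at a week was not counted. *Carm1* separated the groups at 2 weeks. Its 5 Con libraries were at 28.3, 34.7, 35.5, 31.3 and 38.1 TPM and its 5 NCAC libraries at 45.9, 41.0, 43.8, 44.6 and 43.9 TPM, with no overlap, and its log2 difference at that week was 0.38 (limma adjusted p = 0.227), against 0.03, -0.12 and 0.01 at 4, 6 and 8 weeks. *Extl1* separated them at 6 weeks, with Con at 41.6, 38.7, 39.6, 34.4 and 39.98 TPM and NCAC at 31.1, 31.2, 31.9, 23.3 and 28.9 TPM. Its log2 difference was -0.40 at 6 weeks (limma adjusted p = 0.127) and 0.25, -0.12 and 0.27 at 2, 4 and 8 weeks. *Cxcl14* at 6 weeks was at 48.4, 39.5, 47.5, 49.98 and 48.6 TPM in Con and at 37.9, 28.3, 19.8, 24.8 and 40.8 TPM in NCAC, overlapping in 1 library of each group, with log2 differences of 0.25, 0.03, -0.65 and 0.34 at the 4 weeks in turn. Medians of several lists differed in sign between weeks, without a call. The median of all genes was -0.04, -0.00, -0.10 and -0.02 at 2, 4, 6 and 8 weeks. In the same order, that of 14 Schwann cell markers was 0.24, -0.37, -0.01 and 0.25. That of 21 heat shock and chaperone genes was -0.04, 0.01, -0.07 and 0.00. The median of 18 glucocorticoid-response genes was 0.53, -0.14, -0.27 and 0.28 at 2, 4, 6 and 8 weeks. In that list *Sgk1*, a kinase induced by glucocorticoids, had log2 differences of 0.52, 0.08, -0.52 and 0.83 (limma adjusted p of the interaction = 0.900).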

How the data were processed

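The authors deposited 1 table of TPM for 47643 gene symbols, with a column for each of 62 libraries. Per the labels' protocols, poly(A)-selected stranded libraries were sequenced on an Illumina NovaSeq instrument. The genome build was mm10 per the submitters' processing notes. How reads were aligned and counted, and with which annotation, is not given in the sources used here. Groups were taken from the sample descriptions, which match the titles. The treatment tag, which names cachectic cells throughout, was left aside. The labels give no batch.

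Genes that reached 1 TPM in 5 or more of the 40 libraries were tested as log2(TPM + 1) with limma 3.58.1 (R 4.3.3), with a variance trend, two-sided, adjusted by Benjamini-Hochberg over 11756 genes. Fold changes are on the TPM + 1 scale and understate those of low genes. Weekly and interaction tests used a fit of 8 group means. Reads were estimated from GENCODE M21 exon lengths of 45084 symbols. In each library 78.1 to 79.6% of values of 1 to 20 steps lay within 0.02 of a whole number. The estimate covers counting error only. Scripts were tested on simulated data.

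The members, the 49 gene lists and the rules were chosen with earlier results of these data known. Named genes are the 5 of lowest p in each direction, passing over predicted genes and pseudogenes, with no condition on the sign at each week. They also hold the 8 of lowest p for a change between weeks, the 24 genes known from wasting muscle, and the member of lowest p of a list. Replicate numbers do not pair the libraries: of 20 same-numbered pairs, 5 had a correlation of deviations over 0.1 (range -0.17 to 0.30). Alternatives covered the pseudocount, filter, scaling, weights, model and single libraries. A change of sign was counted as a reversal only where the gene was called.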

Additional observations from a re-analysis of the deposited data

Results flagged for a closer look

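In groups of 5 libraries, a library was flagged where its gap to the nearest other, as a share of the group's range, exceeded Dixon's 95% critical value. This was met 58 times in 496 groups of values (11.7%). The critical value is set for normally distributed values, and it was applied to TPM without a log. Some of the genes also lie at separate levels, so this share is not set against a rate of chance. NCAC replicate 3 of 8 weeks was met 8 times: it was high for Mt1 (108 TPM), Mt2 (87.7), Cdkn1a (58.0), Fkbp5 (54.5), Foxo1 (8.00) and Zc3h4 (20.9), and low for Fbxo40 (129) and for the mitochondrial share (26.8%).

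NCAC replicate 1 of 6 weeks was high for Trim63 (263 TPM), Mt2 (40.4), Mstn (33.6), Musk (6.79) and Krtdap (1.44). In other NCAC libraries, Ppargc1a (12.6 TPM, 6 weeks), Foxo1 (8.33, 6 weeks), Pdk4 (530, 4 weeks), Yjefn3 (24.3, 4 weeks), C4b (5.73, 2 weeks), Cxcl12 (28.7, 2 weeks) and Igkc (12.2, 8 weeks) were high in 1 library, and Stoml1 (7.27, 2 weeks) and Myh4 (8705, 2 weeks) were low in 1. Among genes with separate levels, Cwc22 (45.9 TPM, NCAC 2 weeks; 40.8, Con 8 weeks; 3.01, Con 2 weeks), Rsph3a (31.5, NCAC 2 weeks; 23.2, Con 8 weeks), Rsph3b (50.7, Con 8 weeks) and Myh8 (85.7, NCAC 4 weeks; 90.9, Con 8 weeks) were high in 1 library and Myh8 (0.457, NCAC 6 weeks) was low in 1.

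In Con, replicate 5 of 4 weeks was high for Mt1 (145 TPM), Mt2 (126) and Krtdap (1.21). Replicate 1 of 6 weeks was high for Krtdap (188 TPM), Ccl8 (9.87) and Pcyt1a (63.5) and low for Atp5k (662). Replicate 1 of other weeks was high for Igkc (30.5 TPM at 2, 19.5 at 4 and 67.3 at 8 weeks), Hp (21.6) and Ostn (61.8) at 2 weeks and Ccl8 (41.9) at 8 weeks, and low for Extl1 (28.7) at 4 weeks. The remaining high values were Foxo1 (9.30, 2 weeks; 7.24, 8 weeks), Mstn (31.0, 2 weeks), Actc1 (710, 4 weeks), Bcor (7.31, 4 weeks), Rtkn2 (2.25, 6 weeks), Colq (9.06, 6 weeks), Carm1 (40.8, 8 weeks) and Ppargc1a (15.9, 8 weeks). The remaining low values were Cxcl14 (39.5, 6 weeks), Fbxo32 (70.2, 6 weeks), Colq (3.68, 8 weeks) and Egfl7 (15.3, 8 weeks).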

How the results depend on the processing

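The pooled comparison called 0 genes in each of 56 alternative settings, which include each library and each week left out, and the lowest adjusted p of limma was 0.124. The count at an unadjusted p under 0.05 was 1235 as reported, 1752 without a filter on low values, 640 with median-ratio scaling, 630 without the libraries of 2 weeks, 529 with all 62 libraries in the fit and 484 without mitochondrial genes; with 1 library left out it was 943 to 1626. The test of a change between weeks called 0 in its 50 alternatives (lowest adjusted p 0.0506, without NCAC replicate 1 of 2 weeks). At 2 weeks, 1 gene was called without mitochondrial genes (*Carm1*), 14 with array weights and 1 (*Emc4*) without the 3 NCAC libraries farthest from their group means, an alternative chosen after seeing the data. At 6 weeks, 1 was called with median-ratio scaling (*Cript*). The causes were not tested. Leaving out 1 library called 0 at each week. With the replicate block 0 genes were called in the pooled comparison (1221 at an unadjusted p under 0.05, lowest adjusted p 0.434), 0 at any week and 0 for a change between weeks. In the pooled comparison the 88 named genes were called in 0 of 4912 alternatives, and 29 of them changed sign in at least 1. The difference in mitochondrial share was 0.856 to 1.55 percentage points with 1 library left out, 1.34 without the 3 most abundant nuclear genes in the total and 1.21 as a replicate block, and it passed the threshold in none of these. For CAC minus NCAC under median-ratio scaling, *Myh4* was at -0.26 (adjusted p = 0.00317, called), and *Pdk4* (0.49, adjusted p = 0.0844) and *Ppargc1a* (0.08, adjusted p = 0.631) were no longer called. TPM are shares, so a change in total RNA per muscle cannot be seen, and genes that vary widely between libraries, such as *Mt2*, leave room for differences over 1.5-fold.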
